A study of Mus musculus with 24 samples.

Results

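Jejunal crypts of mice that had lost both Apc and the Notchless gene Nle1 were compared on day 2 and day 1 after induction. These double knockout (DKO) crypts carried the conditional knockouts ApccKO and NlecKO together. The comparison rests on 6 of the 24 libraries of the series, the 3 titled as double knockout on day 2 and the 3 titled so on day 1, and each count column was matched to its mouse by the source name. The other libraries came from Control, NlecKO and ApccKO crypts, again with 3 mice per genotype and day. All 8 groups had received tamoxifen at 56 mg/kg by intraperitoneal injection on 3 consecutive days at 5 to 10 weeks of age, Control mice included. Day 1 stands for 24 h and day 2 for 48 h after induction. The sources used here do not give the alleles, the promoter driving the recombinase or the share of recombined crypts. Every mouse was sampled on 1 day only, so a day change compares different mice.

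APC is the scaffold of the complex that marks beta-catenin for destruction, and without it Wnt target genes run without a ligand. Crypt base stem cells depend on Wnt signals, and Lgr5 and Olfm4 are their usual marker genes in the small intestine. Notchless is an assembly factor of the large ribosomal subunit, and failed subunit assembly is a known trigger of the tumour suppressor p53. After damage, crypt cells can switch off stem cell markers and switch on a set of genes otherwise used by the fetal epithelium, with annexins among them.

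The 6 double knockout libraries held 18.01 to 23.65 M estimated counts, and 16552 of 37620 genes were tested. Levels are given as CPM, scaled between libraries for depth, always for replicates 1, 2 and 3 in that order. Changes are log2 day 2 minus day 1 ± SE, with p-values from edgeR's quasi-likelihood test adjusted over all 16552 genes, and a gene is said to rise or fall at an adjusted p under 0.05. CPM are not divided by gene length, so they are compared between libraries and not between genes. In bulk RNA, fewer cells of a type and less RNA per cell cannot be told apart. The submitters' sample codes of the day 1 mice all precede those of the day 2 mice, so a drift along the codes cannot be told apart from the day either. Replicate 1 of each day was male by its Y-linked genes, and the other 4 mice were female. The day 1 replicate 3 library stood apart from its group: on the second principal component of the 6 libraries it lay at -45.6 against 12.4 and 35.9 for the other day 1 libraries. Its processed pseudogene transcripts Gm8730 and Gm9625 lay under 1 CPM, and its summed enterocyte markers reached 26900 CPM against 9040 to 14600 CPM in the other 5. The libraries were epithelial by their markers: all 10 epithelial genes were tested, and their sum was 8820 to 13700 CPM. Immune markers summed to 171 to 211 CPM and stromal and endothelial markers to 283 to 391 CPM, and both ranges overlapped between the days.

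The targeted genes were read first. Nle1 (ENSMUSG00000020692) lay at 12.3, 8.66 and 7.79 CPM on day 1 and at 11, 9.6 and 8.83 CPM on day 2, a change of 0.03±0.17 (adjusted p = 0.95). Apc (ENSMUSG00000005871) lay at 146, 142 and 146 CPM on day 1 and at 141, 148 and 142 CPM on day 2 (-0.01±0.08, adjusted p = 0.98). The ranges of the days overlapped for both genes. Counts over a whole gene do not show the loss of some of its exons, so the Apc values check no label.

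Between the days 1075 genes changed, 6.49% of those tested, with 572 higher (3.46%) and 503 lower (3.04%) on day 2. Of these, 269 changed at least 2-fold, 175 upwards and 94 downwards. Stem cell markers and genes of DNA replication and mitosis were among those that fell, and annexins and other genes of the fetal and regeneration list among those that rose. The number of calls depended on single libraries. It was 254 without day 1 replicate 2, 276 without day 2 replicate 3 and 565 without day 2 replicate 2, and 454 in a fit to the 6 libraries alone, which has fewer degrees of freedom. Without day 1 replicate 3 it was 1183.

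Stem cell markers fell. Of 30 tested, 11 fell and none rose by edgeR's quasi-likelihood test, and the list's median change was -0.36, where the median over all genes was about 0. By unadjusted p under 0.05, 14 were lower and 2 higher. Olfm4 (ENSMUSG00000022026), which encodes a secreted glycoprotein, lay at 2070, 2890 and 1670 CPM on day 1 and at 470, 391 and 267 CPM on day 2. Every day 2 library was below every day 1 library, a condition of its naming among the most lowered genes. The change was -2.56±0.26 (adjusted p = 2.1e-05). Lgr5, the R-spondin receptor, went from 81.4, 158 and 72 CPM to 41.7, 38 and 28.6 CPM (-1.52±0.26, adjusted p = 0.0024). The day 1 values of Lgr5 were spread widely, with replicate 2 far above the others, yet the days did not overlap. Aqp4, a water channel gene, went from 44.8, 91.6 and 62.1 CPM to 16.2, 13.6 and 11 CPM (-2.28±0.24, adjusted p = 4.7e-05).

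Other stem cell markers fell too. Clca4, of the family of chloride channel regulators, went from 707, 826 and 456 CPM to 270, 255 and 199 CPM (-1.46±0.23, adjusted p = 0.0017). Of its 31-base words, 15.1% also stand in transcripts of another gene, mostly Clca3a2. Smoc2, which encodes a secreted calcium-binding matrix protein, went from 171, 230 and 135 CPM to 103, 89.8 and 67.6 CPM (-1.04±0.19, adjusted p = 0.0032). The vitamin D receptor gene Vdr went from 112, 168 and 150 CPM to 77.9, 71.1 and 65.8 CPM (-1.0±0.21, adjusted p = 0.0084). Nrn1 (-2.02±0.36, adjusted p = 0.0031), Rgmb, a co-receptor for bone morphogenetic proteins (-0.95±0.22, adjusted p = 0.015), and Tnfrsf19, a receptor of the TNF family (-0.86±0.23, adjusted p = 0.030), fell as well. The ion cotransporter gene Slc12a2 (-0.45±0.11, adjusted p = 0.022) and Cdca7 (-0.41±0.12, adjusted p = 0.046) had the smallest changes of the 11. Not every stem cell marker was lower. Sox9, a transcription factor of the crypt base, lay at 273, 306 and 264 CPM on day 1 and at 367, 385 and 425 CPM on day 2 (0.48±0.20, adjusted p = 0.16). Ascl2, a transcription factor that maintains Lgr5 cells, lay at 52.7, 59.5 and 43.8 CPM and then at 39.7, 40.9 and 40.1 CPM (-0.37±0.16, adjusted p = 0.19). The count of 11 was 6 without day 1 replicate 2 or without day 2 replicate 3, 7 without day 2 replicate 2, and 4 in the fit to the 6 libraries alone. Olfm4, Aqp4 and Clca4 kept their calls in all 14 alternatives, and Lgr5 lost its call only in the fit to the 6 libraries.

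**Figure D1:**
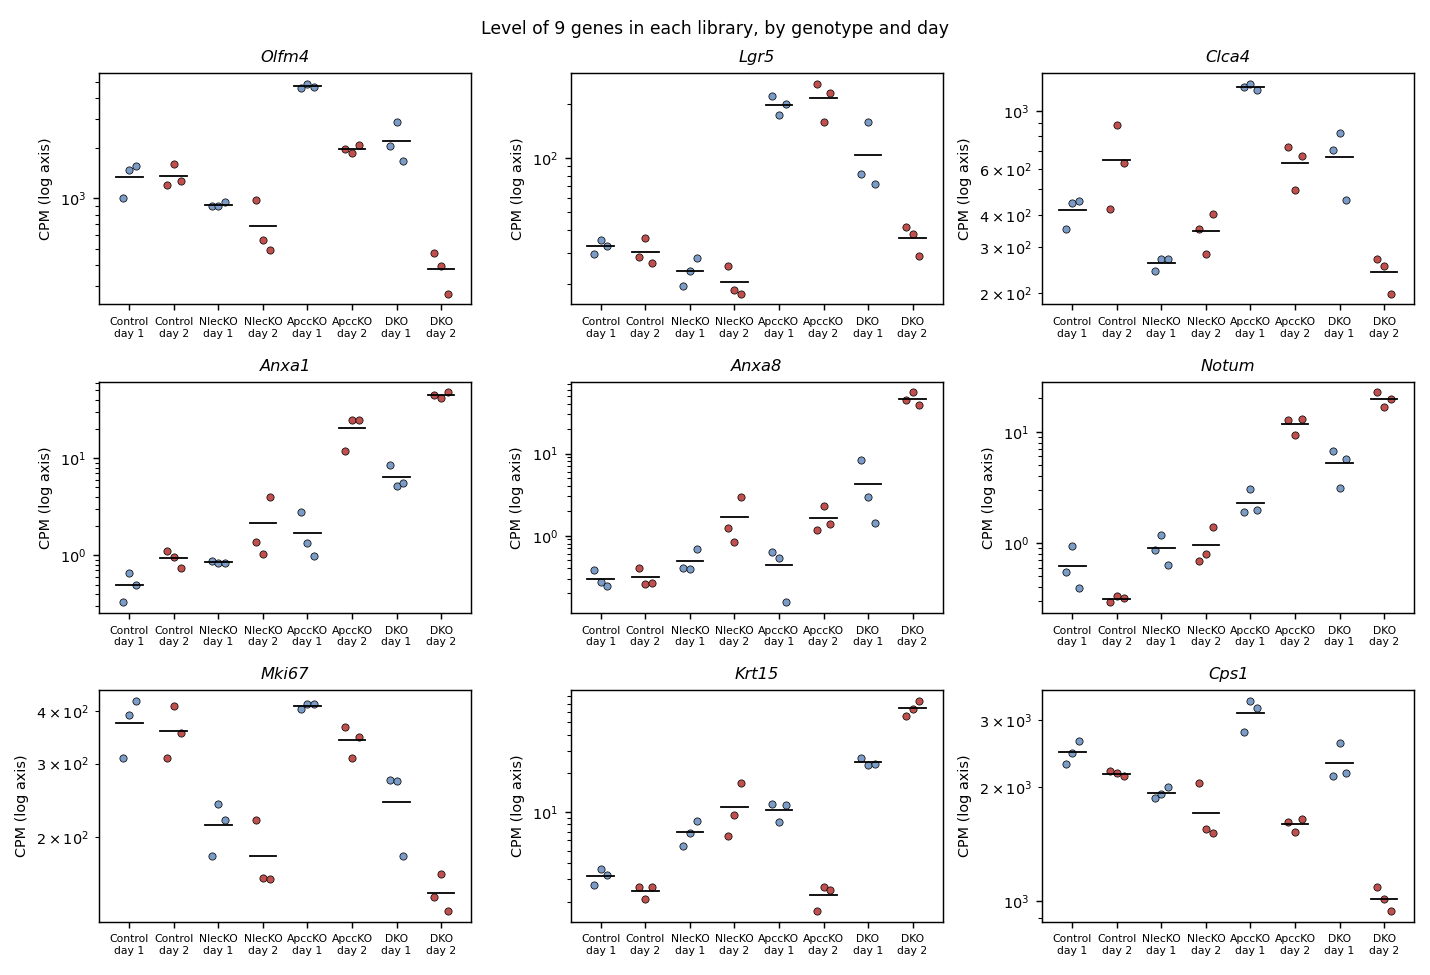
Level in CPM (log axis, a separate scale for each gene) of 9 genes in the 24 libraries, by genotype and day; each point is 1 mouse and each bar the group mean. In double knockout crypts Olfm4 falls from 1670 to 2890 CPM on day 1 to 267 to 470 CPM on day 2. Anxa1 rises from 5.17 to 8.53 CPM to 41.3 to 47.6 CPM. For all 9 genes the double knockout days do not overlap, and the share of all tested genes without overlap is not given here. For Olfm4, Anxa1 and Anxa8 the lack of overlap was a condition of their naming among the most lowered or most raised genes. The rest were named for a small p or a large difference between genotypes, which also favours days without overlap.

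Genes of DNA replication fell together. All 42 tested genes of the S phase list had a negative change, 25 of them fell, none rose, and the median was -0.54. Their unadjusted p was under 0.05 in 40. Pcna, the sliding clamp of the replication polymerases, lay at 201, 175 and 160 CPM on day 1 and at 121, 112 and 102 CPM on day 2 (-0.68±0.13, adjusted p = 0.0037). Of its words, 23.3% also stand in the pseudogene Pcna-ps2. Tyms, which makes thymidylate, fell by 0.59±0.12 (adjusted p = 0.0054), and the clamp loader subunit Rfc5 fell by 0.62±0.11 (adjusted p = 0.0031). Mcm6, a subunit of the replicative helicase, went from 174, 164 and 123 CPM to 92.4, 108 and 82.5 CPM (-0.70±0.15, adjusted p = 0.0083). Dtl, which helps to restrict replication to once per cycle, went from 51, 51.6 and 35.4 CPM to 28.3, 29.5 and 23.9 CPM (-0.76±0.15, adjusted p = 0.0055). E2f1, a transcription factor that turns on S phase genes, went from 19.9, 23.5 and 13.2 CPM to 11.1, 11.5 and 8.57 CPM (-0.86±0.20, adjusted p = 0.016). In Mcm6, Dtl and E2f1 the lowest day 1 value was that of replicate 3.

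Genes of mitosis fell as well. All 36 tested genes of the G2 and M phase list had a negative change, 24 fell, none rose, and the median was -0.64. Their unadjusted p was under 0.05 in 34. The proliferation marker Mki67 lay at 274, 272 and 180 CPM on day 1 and at 144, 163 and 133 CPM on day 2 (-0.72±0.16, adjusted p = 0.012). The kinetochore gene Cenpf went from 58.9, 55.4 and 34.2 CPM to 27.1, 27.3 and 22.5 CPM (-0.95±0.20, adjusted p = 0.0082). Cyclin B2, Ccnb2, which acts with the kinase Cdk1 at entry into mitosis, went from 49.4, 46.2 and 30.4 CPM to 24.5, 28.3 and 22.1 CPM (-0.75±0.19, adjusted p = 0.023). In all 3 genes day 1 replicate 3 stood close to the day 2 libraries, and the days still did not overlap. Cdk1 itself fell by 0.72±0.18 (adjusted p = 0.023). The spindle checkpoint genes Mad2l1 (-0.75±0.16, adjusted p = 0.0084) and Bub1b (-0.75±0.17, adjusted p = 0.014) fell to a like extent, and so did the kinetochore gene Nuf2 (-0.77±0.18, adjusted p = 0.012). Kif11, a spindle motor gene, fell by 0.65±0.16 (adjusted p = 0.021) although its days overlapped, at 79.2, 78.5 and 47.5 CPM against 42.5, 48.4 and 39.8 CPM.

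The calls in both cell cycle lists depended on single libraries more than their direction did. The 25 S phase calls were 8 without day 1 replicate 2, 8 without day 2 replicate 3, 13 without day 1 replicate 1, 16 without day 2 replicate 1, and 36 without day 1 replicate 3. The 24 calls of the G2 and M phase list were 0 without day 1 replicate 2 or without day 2 replicate 3, 4 without day 1 replicate 1, 7 without day 2 replicate 1, and 30 without day 1 replicate 3. The fit to the 6 libraries alone called 10 S phase genes and 0 genes of the G2 and M phase list. Rfc5, Pcna and Tyms kept their calls in all 14 alternatives. Summed over the lists, S phase genes lay at 3110, 3030 and 2240 CPM on day 1 and at 1950, 2060 and 1800 CPM on day 2. The sums of the G2 and M phase genes were 2630, 2580 and 1760 CPM and then 1470, 1700 and 1420 CPM. For each list the days did not overlap, and day 1 replicate 3, which also held the most enterocyte marker RNA, was nearest to day 2. The part of enterocyte RNA in this was not tested.

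**Figure D2:**
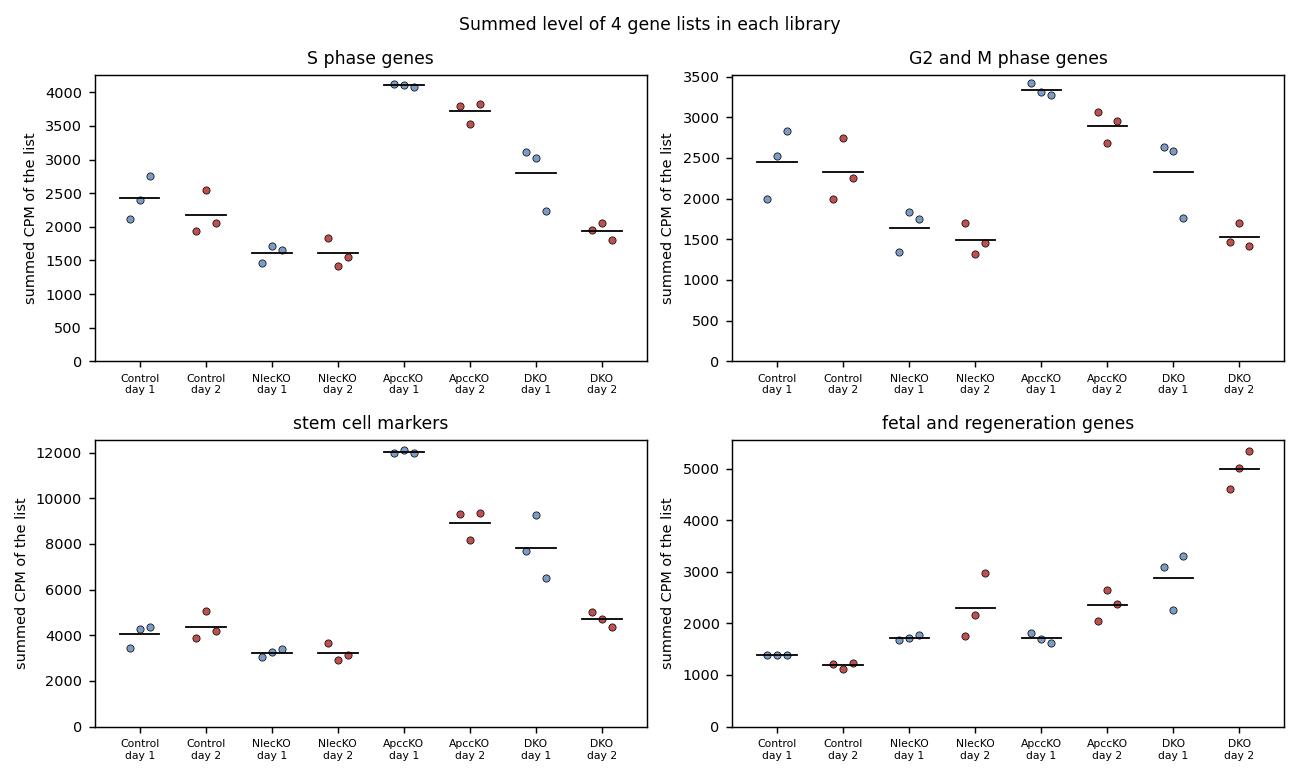
Summed CPM of the S phase, G2 and M phase, stem cell, and fetal and regeneration lists in the 24 libraries, by genotype and day; points are mice and bars group means, on a linear axis from 0. In double knockout crypts the first 3 sums are lower on day 2 and the fourth is higher, at 4600 to 5350 CPM against 2270 to 3300 CPM.

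Promoters of the replication and mitosis genes that fell are shown because these genes moved together and their start sites are known for short shared motifs. The sequences are from RefSeq (GRCm38.p6), 1 promoter per gene, the first listed, and are read 5′ to 3′ on the gene's strand. The letters TTTGGCGC, TTTCCCGC and TTTCGCGC, forms of the E2F site, were searched on both strands from 250 bases before to 50 bases after the start. Of 27025 genes in the table, 1.91% held at least 1 of them, and 6 of the 22 S phase genes that fell and had a promoter there (27.3%). A promoter was found for 88.0% of the 25. All tested S phase genes are not counted, since only 78.6% of the 42 had a promoter. Among genes with a promoter, those that fell did not hold the letters more often than all tested genes of that list. No test of this was run. Of 16464 tested symbols 10689 had a promoter in the table. The letters TTTGAA, the core of the cell cycle genes homology region (CHR), were searched on both strands in the same window. They stood in 18.1% of all promoters of the table and in 22 of 29 promoters of the tested G2 and M phase genes (75.9%). For that list all tested genes are counted, since 80.6% of the 36 had a promoter but only 79.2% of the 24 that fell, too few by the 80% asked for here. Here too the genes that fell did not hold the letters more often than all tested genes, and no test was run. Such a match is a description of letters and not of a bound site. The 250 bases before the start are printed for the 2 genes of each list with the largest change among those that fell and held the motif there. Capitals mark the E2F letters in Dtl (chr1:191575545-191575794, minus strand) and Mcm6 (chr1:128359706-128359955, minus strand), where 2 of 3 matches overlap. They mark the CHR letters in Ccnb2 (chr9:70421555-70421804, minus strand) and Mki67 (chr7:135716380-135716629, minus strand).
Dtl: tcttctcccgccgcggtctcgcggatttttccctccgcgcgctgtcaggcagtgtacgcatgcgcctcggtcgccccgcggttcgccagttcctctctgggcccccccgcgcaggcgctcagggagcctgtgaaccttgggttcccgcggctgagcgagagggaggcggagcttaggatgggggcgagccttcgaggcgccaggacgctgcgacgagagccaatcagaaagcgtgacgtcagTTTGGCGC
Mcm6: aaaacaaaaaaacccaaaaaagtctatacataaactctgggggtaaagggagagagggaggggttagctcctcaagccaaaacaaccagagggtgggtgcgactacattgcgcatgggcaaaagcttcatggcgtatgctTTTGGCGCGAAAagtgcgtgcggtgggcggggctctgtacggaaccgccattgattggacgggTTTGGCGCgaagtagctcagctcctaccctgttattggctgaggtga
Ccnb2: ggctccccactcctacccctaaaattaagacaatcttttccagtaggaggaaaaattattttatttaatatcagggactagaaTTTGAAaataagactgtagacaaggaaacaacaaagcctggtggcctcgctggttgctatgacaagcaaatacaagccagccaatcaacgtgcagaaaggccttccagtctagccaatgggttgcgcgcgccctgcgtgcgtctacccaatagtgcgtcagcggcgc
Mki67: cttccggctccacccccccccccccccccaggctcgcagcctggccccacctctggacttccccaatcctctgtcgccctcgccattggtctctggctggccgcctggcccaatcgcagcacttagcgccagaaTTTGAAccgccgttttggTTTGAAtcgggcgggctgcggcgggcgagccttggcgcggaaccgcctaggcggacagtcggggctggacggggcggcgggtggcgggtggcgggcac

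Genes of the fetal and regeneration list rose. Of 30 tested, 11 rose and none fell by edgeR's quasi-likelihood test, 29 had a positive change, and the median was 1.27. By unadjusted p under 0.05, 24 were higher and 0 lower. Anxa1 (ENSMUSG00000024659), an annexin that binds membranes in the presence of calcium, lay at 8.53, 5.17 and 5.55 CPM on day 1 and at 44.3, 41.3 and 47.6 CPM on day 2 (2.79±0.39, adjusted p = 0.00047). Its values were close together within each day and far apart between them. Anxa8 went from 8.34, 2.92 and 1.44 CPM to 45.4, 55.6 and 39.1 CPM (3.45±0.48, adjusted p = 0.00050), with a wide spread on day 1. Anxa10 went from 2.66, 0.526 and 2.45 CPM to 11.8, 11.6 and 17.6 CPM (2.86±0.51, adjusted p = 0.0031).

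The membrane-attached protein gene Basp1 went from 2.47, 1.82 and 0.907 CPM to 11.6, 9.71 and 20.5 CPM (3.00±0.41, adjusted p = 0.00031). F3, tissue factor, which starts blood clotting, went from 11, 8.8 and 13.7 CPM to 25.1, 37.1 and 39.2 CPM (1.6±0.31, adjusted p = 0.0053). F3 showed no overlap between the days, and nor did Basp1, for which this was a condition of its naming among the most raised genes. The epidermal growth factor family ligand Ereg rose by 1.49±0.34 (adjusted p = 0.015). The tight junction gene Cldn4 (1.33±0.34, adjusted p = 0.025), the keratin gene Krt7 (0.88±0.23, adjusted p = 0.024), the calcium-binding protein gene S100a6 (1.58±0.42, adjusted p = 0.031) and Anxa3 (1.41±0.41, adjusted p = 0.046) rose too. Several well-known members missed the threshold. Clu, a secreted chaperone and marker of revival stem cells, lay at 134, 80.3 and 73 CPM on day 1 and at 288, 216 and 230 CPM on day 2 (1.35±0.41, adjusted p = 0.055). Ly6a, or Sca1, lay at 84.4, 31.8 and 101 CPM and then at 122, 220 and 214 CPM (1.36±0.58, adjusted p = 0.19). The ligand Areg (1.20±0.37, adjusted p = 0.058) and Ctgf, a target of the cofactor YAP (1.62±0.51, adjusted p = 0.062), were close to the threshold. Another YAP target, Cyr61, lay at 12.4, 11.2 and 11.9 CPM and then at 16.3, 12.4 and 12 CPM (0.20±0.22, adjusted p = 0.68). The count of 11 was 6 without day 1 replicate 2 or without day 2 replicate 3, 7 without day 2 replicate 2, and 14 in the fit to the 6 libraries alone, while DESeq2 called 18. Anxa1, Anxa8, Anxa10 and Basp1 kept their calls in all 14 alternatives.

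**Figure D3:**
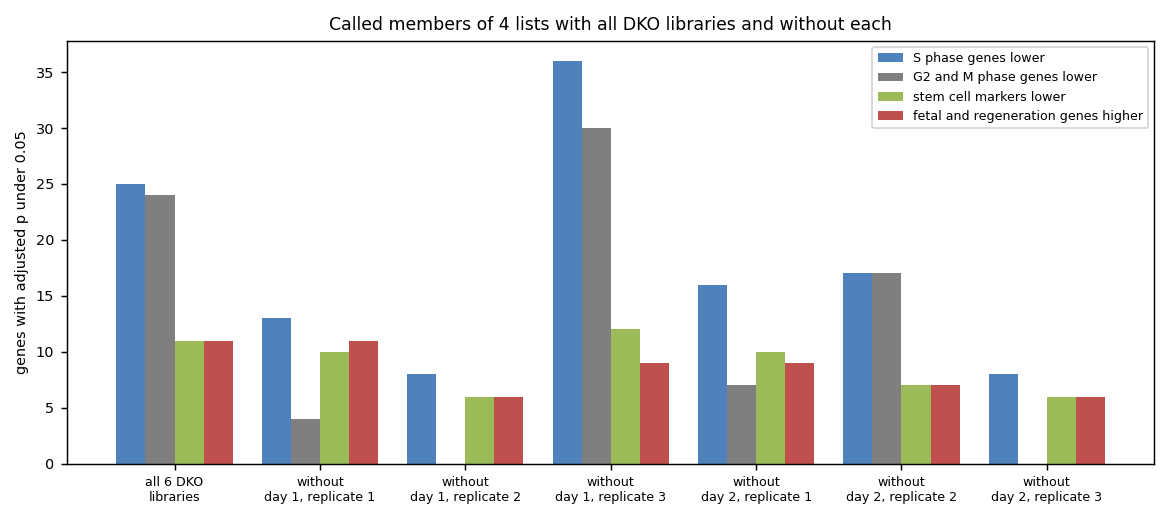
Number of list members with an adjusted p under 0.05 with all 6 double knockout libraries and after leaving out each in turn, for S phase, G2 and M phase and stem cell genes that fell and fetal and regeneration genes that rose; bars start at 0. The G2 and M phase bar goes from 24 to 0 without day 1 replicate 2 or day 2 replicate 3, while the stem cell and fetal bars stay between 6 and 12.

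Immediate early genes, which cells switch on within minutes of a growth or stress signal, rose in part. Of 20 tested, 5 rose and none fell, and the median was 0.41. Ier3 went from 14.6, 9.09 and 11.7 CPM to 29.9, 43.3 and 38.2 CPM (1.65±0.21, adjusted p = 0.00024). Junb, a subunit of the transcription factor AP-1, went from 120, 91.5 and 118 CPM to 156, 211 and 231 CPM (0.86±0.18, adjusted p = 0.0090). The AP-1 subunits Fosl2 (0.53±0.12, adjusted p = 0.013) and Fos (0.98±0.28, adjusted p = 0.041) and the phosphatase gene Dusp1 (1.13±0.31, adjusted p = 0.032) rose too, and the Dusp1 values of the days overlapped. Of this list, 4 genes were called without day 1 replicate 1 and 1 gene without day 1 replicate 2 or without day 2 replicate 3. Ier3 kept its call in all 14 alternatives.

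Of 46 tested p53 targets, 5 rose and none fell, where 3.46% of all genes tested rose and 3.04% fell. The list's median was 0.27, and 39 changes were positive. Cdkn1a, the p21 inhibitor of cyclin-dependent kinases, lay at 393, 428 and 524 CPM on day 1 and at 631, 711 and 822 CPM on day 2 (0.69±0.20, adjusted p = 0.049). Mdm2, the ligase that degrades p53, went from 132, 153 and 158 CPM to 195, 234 and 255 CPM (0.63±0.18, adjusted p = 0.038). For both genes the days did not overlap. The ribonucleotide reductase subunit Rrm2b (0.54±0.14, adjusted p = 0.025), the reductase gene Dcxr (0.48±0.13, adjusted p = 0.035) and the cell adhesion gene Perp (0.47±0.13, adjusted p = 0.036) rose too. The count of 5 was 0 without day 1 replicate 1, day 1 replicate 2, day 2 replicate 2 or day 2 replicate 3, and 10 with a term for sex. Of 29 apoptosis genes tested 1 rose, which is near the share over all genes and is not read as a change of the list. This was Bcl2l1, which encodes the survival protein Bcl-xL (0.65±0.14, adjusted p = 0.012). The Bcl2l1 call was lost without day 1 replicate 2 or day 2 replicate 3.

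Of 30 Wnt targets and feedback genes 1 rose and 3 fell, with a median of -0.03, where 3.46% of all genes tested rose and 3.04% fell. The count that rose is near that share and is not read as a change of the list. Notum, a secreted enzyme that inactivates Wnt ligands, rose from 6.78, 3.11 and 5.71 CPM to 22.7, 16.8 and 19.9 CPM (1.93±0.28, adjusted p = 0.00051). The 3 that fell were Lgr5, Slc12a2 and Tnfrsf19, which are also on the stem cell list. Axin2, a negative feedback gene of the pathway, lay at 354, 443 and 393 CPM on day 1 and at 344, 279 and 310 CPM on day 2 (-0.35±0.15, adjusted p = 0.17). Ccnd1, cyclin D1, lay at 383, 408 and 375 CPM and then at 604, 682 and 759 CPM (0.81±0.25, adjusted p = 0.062). The days did not overlap for Axin2 or Ccnd1, though neither passed the threshold. Notum kept its call in all 14 alternatives. The 3 genes that fell were 1 without day 1 replicate 2, day 2 replicate 2 or day 2 replicate 3, and the fit to the 6 libraries alone called 3 higher and 0 lower.

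Some markers of differentiated cells changed, where 3.46% of all genes tested rose and 3.04% fell. Of 23 goblet cell markers 2 rose: Muc2, the main mucin of intestinal mucus, went from 630, 683 and 705 CPM to 1140, 1070 and 1170 CPM (0.75±0.14, adjusted p = 0.0031). Fxyd3, a small regulator of the sodium pump, went from 69.2, 43.8 and 36.7 CPM to 104, 107 and 109 CPM (1.10±0.23, adjusted p = 0.0082). Of 21 Paneth cell markers, Pla2g2a, a secreted phospholipase, rose from 202, 134 and 145 CPM to 364, 351 and 329 CPM (1.12±0.29, adjusted p = 0.028). Lyz1, the Paneth cell lysozyme, lay at 5290, 8570 and 5700 CPM and then at 9280, 5920 and 4560 CPM (0.02, adjusted p = 0.99). The antimicrobial lectin gene Reg3g, at 569, 210 and 127 CPM and then at 1260, 1750 and 2330 CPM, did not overlap between days but missed the threshold (2.56±0.75, adjusted p = 0.0503). Of 28 enteroendocrine markers, Neurog3, the transcription factor that starts this lineage, fell from 12, 20.7 and 9.71 CPM to 5.44, 5.47 and 4.21 CPM (-1.49±0.31, adjusted p = 0.0074). Reg4 rose from 412, 406 and 435 CPM to 855, 615 and 534 CPM (0.68±0.20, adjusted p = 0.045), but kept its call in 4 of 14 alternatives and lost it when any 1 of the 6 double knockout libraries was left out. The Neurog3 call was lost without day 1 replicate 2 or day 2 replicate 3, that of Fxyd3 without day 1 replicate 2, and that of Pla2g2a without any 1 of these 6 libraries other than day 1 replicate 1. None of 18 tuft cell markers passed by edgeR or DESeq2, and 1 had an unadjusted p under 0.05.

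Of 36 enterocyte markers only Cps1 passed. Cps1 encodes the enzyme that feeds ammonia into the urea cycle, and it fell from 2140, 2610 and 2180 CPM to 1090, 1010 and 941 CPM (-1.19±0.11, adjusted p = 5.5e-06). Otc, the next enzyme of that cycle, fell from 32, 46.6 and 55.5 CPM to 18.4, 10.2 and 13.1 CPM (-1.68±0.29, adjusted p = 0.0028). Both genes kept their calls in all 14 alternatives. The median of the enterocyte list was -0.56, with 34 of 36 changes negative, but without day 1 replicate 3 it was 0.11. Lactase, Lct, a brush border enzyme, shows that library: it lay at 93.4, 82.7 and 445 CPM on day 1 and at 126, 10.2 and 27.5 CPM on day 2 (-1.92±0.94, adjusted p = 0.26).

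**Figure D4:**
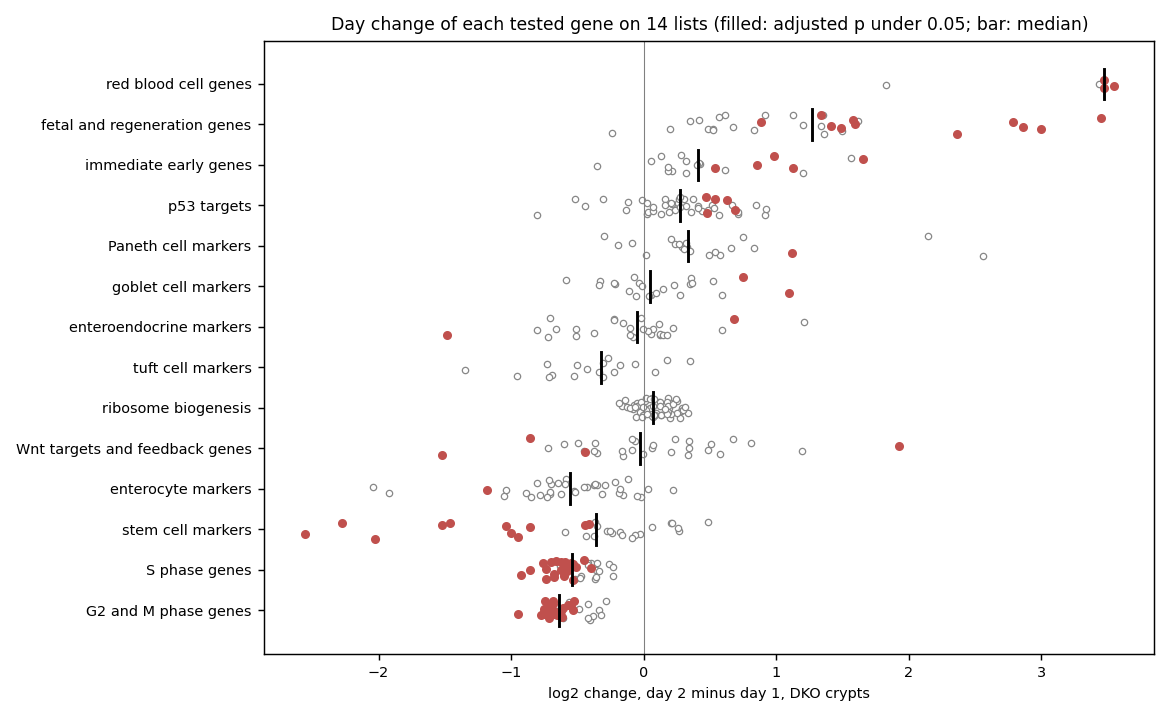
Change of each tested gene of 14 lists in double knockout crypts on a log2 scale (day 2 minus day 1); each point is a gene, filled points have an adjusted p under 0.05, and black bars are list medians. The S phase and G2 and M phase points all lie below 0 around medians of -0.54 and -0.64, while the fetal and regeneration list spreads upwards around 1.27.

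Among the genes with the largest changes were several that are on none of the lists. Dsg3, a desmosome cadherin of stratified epithelium, rose from 1.23, 0.335 and 0.533 CPM to 5.78, 7.62 and 10.1 CPM (3.46±0.43, adjusted p = 0.00015). Adam8, a membrane protease, rose from 22.5, 6.99 and 14.2 CPM to 67, 94.9 and 93.1 CPM (2.54±0.42, adjusted p = 0.0024). Syt8, of the synaptotagmin family (3.06±0.55, adjusted p = 0.0031), and Rab11fip5, which acts in vesicle recycling (2.63±0.49, adjusted p = 0.0043), rose as well. So did Arhgap40 (3.02±0.76, adjusted p = 0.026), which lost its call in 7 of 14 alternatives. Of the genes lowered most, Cym, the chymosin gene, fell from 10.1, 18.2 and 7.57 CPM to 1.5, 0.215 and 0.779 CPM (-3.79±0.62, adjusted p = 0.0020). Sfrp5, a secreted Wnt antagonist, fell from 4.6, 11 and 4.21 CPM to 2.04, 0.697 and 0.883 CPM (-2.41±0.56, adjusted p = 0.016). The transporter Slco2b1 (-2.57±0.45, adjusted p = 0.0031), the fatty acid transporter Slc27a2 (-1.89±0.35, adjusted p = 0.0043), Gkn3 (-2.03±0.38, adjusted p = 0.0043) and Cap2 (-1.70±0.31, adjusted p = 0.0032) fell too. The sulfotransferase gene Sult1d1 (-1.96±0.49, adjusted p = 0.024) and the reductase gene Akr1c19 (-1.67±0.44, adjusted p = 0.029) fell, but kept their calls in 8 and 7 of 14 alternatives. Both lost the call without day 1 replicate 3, which held their highest level, and without any 1 of the day 2 libraries.

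Haemoglobin genes, which red blood cells carry as RNA, rose. Hba-a1 lay at 1.28, 1.34 and 1.01 CPM on day 1 and at 5.4, 26.4 and 11.1 CPM on day 2 (3.55±0.92, adjusted p = 0.028). Hba-a2 (3.47±0.93, adjusted p = 0.032) and Hbb-b1 (3.47±0.90, adjusted p = 0.028) moved with it. Hba-a2 shares 92.6% of its words with Hba-a1 and Hbb-b1 shares 54.4% with Hbb-bt, so reads of these pairs cannot be fully told apart. Of 5 tested red blood cell genes 3 rose, their sum was 3.52 to 8.9 CPM on day 1 and 23.9 to 140 CPM on day 2, and 0 were called when any 1 of the day 1 libraries, day 2 replicate 2 or day 2 replicate 3 was left out. Immune markers, with 33 tested, and stromal and endothelial markers, with 21 tested, had 0 calls by edgeR. Of these genes 7 immune and 5 stromal and endothelial ones had an unadjusted p under 0.05, and DESeq2 called 0 and 1. Of 10 epithelial markers 3 rose: Krt19 (0.65±0.14, adjusted p = 0.0071), Krt8 (0.48±0.13, adjusted p = 0.030) and Cdh1 (0.30±0.07, adjusted p = 0.019). The list had 5 positive and 5 negative changes with a median of 0.05, and its 3 calls were 0 without day 1 replicate 2 or day 2 replicate 3 and 1 without day 2 replicate 2 or in the fit to the 6 libraries alone. Epcam lay at 1050, 771 and 924 CPM and then at 966, 835 and 859 CPM (-0.05, adjusted p = 0.87). Krt8 shares 32.3% of its words with other transcripts, mostly the pseudogene Krt8-ps.

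The calls in other lists are given as counts, where 6.49% of all genes tested were called. These counts are not read as changes of the lists. None of 61 ribosome biogenesis genes passed by edgeR or by DESeq2. Their median was 0.07, and at an unadjusted p under 0.05 there were 3 higher and 1 lower. The integrated stress response is the programme that answers amino acid shortage and unfolded protein. Of its 33 tested genes 1 fell: Mthfd2, a mitochondrial enzyme of folate metabolism (-0.55±0.15, adjusted p = 0.032). Mthfd2 was lower on day 2 in ApccKO (-0.62, adjusted p = 0.011) and Control crypts (-0.64, adjusted p = 0.11) too. The differences of its double knockout change from these 2 were not called (adjusted p = 0.94 and 0.91). Acat2 (-0.50±0.12, adjusted p = 0.016) and Dhcr7 (-0.49±0.14, adjusted p = 0.042) fell among 26 genes of cholesterol synthesis and uptake. Acat2 shares 43.7% of its words with Acat3. In the Notch pathway Hes6 (0.32±0.09, adjusted p = 0.041) and Maml3 (0.46±0.12, adjusted p = 0.028) rose among 25. Without a filter on low counts, or without day 1 replicate 2, day 2 replicate 2 or day 2 replicate 3, 0 Notch pathway genes were called. Of 24 glycolysis and hypoxia genes 1 rose and 2 fell. Hexokinase 1, Hk1, rose from 19.2, 15.4 and 15.1 CPM to 29.2, 42 and 41.2 CPM (1.17±0.16, adjusted p = 0.00036). Pdk1, which restrains the entry of pyruvate into mitochondria, fell by 0.51±0.12 (adjusted p = 0.012). The hypoxia-induced gene Ankrd37 fell by 1.21±0.36 (adjusted p = 0.049). Of 24 Nrf2 and glutathione genes 1 rose, the aldo-keto reductase gene Akr1b8 (1.31±0.25, adjusted p = 0.0046). Bhlhe40 was the one call among 19 circadian clock genes (0.56±0.14, adjusted p = 0.019). The calls of Mthfd2, Acat2, Dhcr7, Pdk1, Ankrd37 and Bhlhe40 were each lost without day 1 replicate 2 and without day 2 replicate 3, while Hk1 and Akr1b8 kept theirs in all 14 alternatives. None of 9 MHC class II genes, 38 interferon response rows and 13 mitochondrially encoded genes passed by edgeR or DESeq2, and 0 had an unadjusted p under 0.05.

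Some transcripts were nearly absent on 1 day, chosen here after seeing their values. Gm15459 lay at 2.23, 1.05 and 0.533 CPM on day 1 and at 325, 313 and 319 CPM on day 2 (7.94±1.27, adjusted p = 0.0021), and Gm17431 at 1.37, 1.82 and 2.19 CPM and then at 415, 383 and 399 CPM (7.80±1.32, adjusted p = 0.0029). Gm13841 lay at 248 CPM in day 2 replicate 2 and at 0.0831 to 0.287 CPM in the other 5 libraries (8.35±2.40, adjusted p = 0.047), so its call rests on that library. Gm15459 shares 96.9% of its 31-base words with other transcripts, mostly those of the chaperone gene Hspa8, and Gm13841 shares all of them with Gm8210. Reads of such copies can be assigned to either, so these values are uncertain.

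The same day change was measured in ApccKO crypts, which keep Nle1, to ask which changes also followed the loss of Apc alone. There 1875 genes changed (11.3% of those tested), 967 upwards (5.84%) and 908 downwards (5.49%). Of the 1075 genes called in double knockout crypts, 351 were called in the same direction in ApccKO crypts (32.7% of the double knockout calls and 18.7% of the ApccKO calls), 8 in the opposite one, and 941 had the same sign. The comparisons share no library, but they share the estimate of the spread. Leaving out ApccKO day 1 replicates 2 and 3 and double knockout day 1 replicate 3, which stood apart from the rest of the Apc-lost libraries, keeps 1 ApccKO library on day 1, assumed to vary like the others. ApccKO crypts then had 34 calls, and the correlation of the day changes across genes, which are not independent, went from 0.39 to 0.19.

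The lists moved in part with those of ApccKO crypts. Fetal and regeneration genes had a median of 0.89, with 11 higher and 1 lower, in ApccKO crypts against 1.27, with 11 higher and 0 lower, in double knockout crypts. Stem cell markers had a median of 0.01, with 5 lower and 1 higher, against -0.36 and 11 lower. S phase genes had a median of -0.14 with 4 lower, and G2 and M phase genes -0.18 with none called. The difference itself, double knockout minus ApccKO day change, was called for 72 of all genes (0.435%), 40 upwards (0.242%) and 32 downwards (0.193%). It was called for 0 of 42 S phase and 0 of 36 G2 and M phase genes, by edgeR and by DESeq2, with 12 and 11 below 0 at an unadjusted p under 0.05. A different change in the genotypes was thus not shown for those genes. Among 30 fetal and regeneration genes edgeR called the difference for 0 and DESeq2 for 1. At an unadjusted p under 0.05, 3 were above and 3 below 0 by edgeR. A larger rise of this list in double knockout crypts was thus not shown. Among stem cell markers 1 of 30 was called: Lgr5 lay at a mean of 198 CPM on day 1 and 216 CPM on day 2 in ApccKO crypts, and its change differed by -1.64±0.36 (adjusted p = 0.047). Olfm4 fell in ApccKO crypts too, from a mean of 4707 to 1975 CPM, and the difference for Olfm4 missed the threshold (-1.30±0.34, adjusted p = 0.096).

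**Figure D5:**
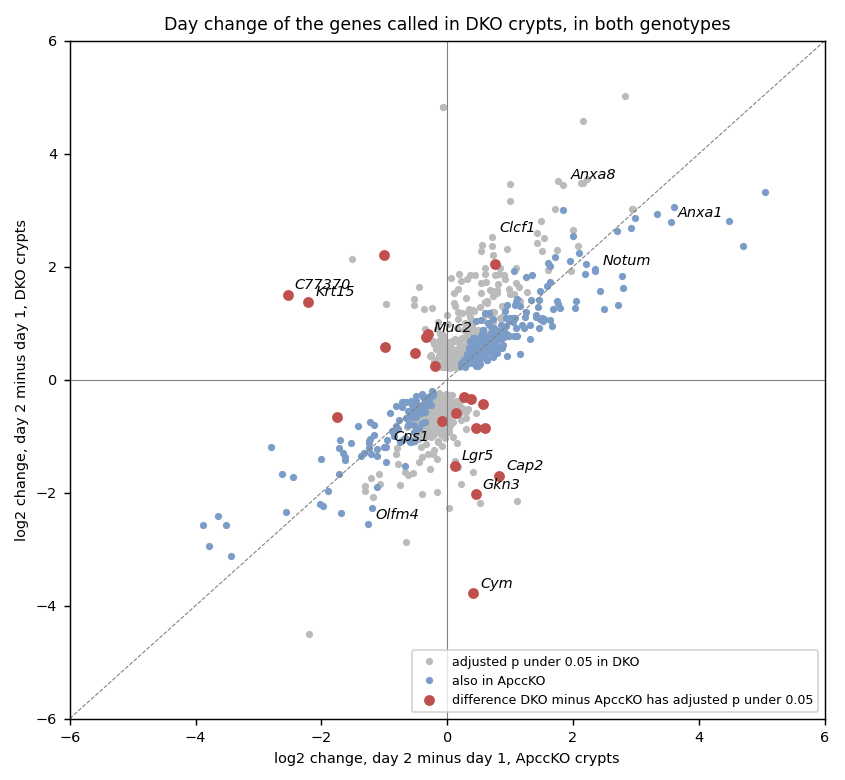
Day change on a log2 scale in ApccKO crypts (x axis) and in double knockout crypts (y axis) of genes called in double knockout crypts, 1069 drawn and 6 outside the axes; blue points are also called in ApccKO crypts, and red points have a called difference between the genotypes. Krt15 lies at -2.21 in ApccKO and 1.38 in double knockout crypts, while Anxa1 is raised in both.

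Krt15, a keratin gene of progenitor cells in several epithelia, moved in opposite directions. It rose from 26.6, 23.3 and 23.8 CPM to 55.7, 63.2 and 73.6 CPM in double knockout crypts (1.38±0.24, adjusted p = 0.0024) and fell from 11.6, 8.33 and 11.4 CPM to 1.69, 2.62 and 2.47 CPM in ApccKO crypts. The difference was 3.59±0.36 (adjusted p = 6.4e-05) and was called in all 20 alternatives. Among goblet cell markers 4 of 23 were called for the difference. Muc2 rose in double knockout crypts, and its change differed from that in ApccKO crypts (difference 1.09±0.19, adjusted p = 0.016). It did not differ by this test from the change in Control crypts (difference 0.29±0.19, adjusted p = 0.53). There Muc2 had means of 1069 CPM on day 1 and 1469 CPM on day 2 (0.458±0.135, adjusted p = 0.20). Tff3, a trefoil peptide of mucus, lay at means of 455 and 422 CPM in double knockout crypts and fell from 405 to 162 CPM in ApccKO crypts (difference 1.21±0.16, adjusted p = 0.0027). Agr2 (0.94±0.19, adjusted p = 0.031) and Ccl6 (1.5±0.27, adjusted p = 0.021) differed in the same way. The enteroendocrine hormone genes Gip (1.38±0.22, adjusted p = 0.011) and Sst (1.54±0.34, adjusted p = 0.0495) had differences of the same direction. Of 46 p53 targets 4 were called for the difference, all upwards: Dcxr (1.0±0.19, adjusted p = 0.024), Ephx1 (1.18±0.22, adjusted p = 0.021), Ccng1 (1.22±0.25, adjusted p = 0.037) and Ddit4l (1.49±0.33, adjusted p = 0.044). In ApccKO crypts the p53 list had a median of -0.27, with 3 higher and 9 lower, and Dcxr fell there (-0.52±0.14, adjusted p = 0.022). Ephx1, Ccng1 and Ddit4l were not among the 5 that rose in double knockout crypts. These differences are thus not a rise in double knockout crypts alone. Jun, an AP-1 subunit, rose in ApccKO crypts from a mean of 126 to 275 CPM and lay at 115 and 130 CPM in double knockout crypts (difference -0.94±0.17, adjusted p = 0.021). Without the 3 libraries that stood apart the 72 differences became 5, and without day 2 replicate 3 of the double knockout they became 9, so the count depends on few libraries.

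Between the days 27 genes were called in Control crypts (0.163%), 18 upwards (0.109%) and 9 downwards (0.0544%). DESeq2 called 144 with a more even split, 77 upwards and 67 downwards. MHC class II genes, which present antigen, had a median of 2.12 in Control crypts with 1 of 9 higher, against -0.32 and 0 called in double knockout crypts. For the difference edgeR called 0 of the 9, with 7 below 0 at an unadjusted p under 0.05, and DESeq2 called 7. Of the 1075 double knockout calls 7 were also called in Control crypts, all in the same direction. The difference between the double knockout and the Control day change was called for 114 genes (0.689%), 67 upwards (0.405%) and 47 downwards (0.284%). Stem cell markers held 4 of these: Olfm4 (-2.56±0.35, adjusted p = 0.0028), Aqp4 (-2.31±0.33, adjusted p = 0.0048), Clca4 (-2.09±0.33, adjusted p = 0.0054) and Vdr (-1.40±0.30, adjusted p = 0.036). Notum (2.88±0.53, adjusted p = 0.017), Basp1 (2.79±0.57, adjusted p = 0.032), Ier3 (1.84±0.32, adjusted p = 0.0093), Akr1b8 (2.08±0.35, adjusted p = 0.0093) and Hk1 (1.02±0.23, adjusted p = 0.046) had a larger change than in Control. The change of Cps1 differed by -1.0±0.15 (adjusted p = 0.0054). Olfm4, Aqp4, Clca4, Notum, Basp1, Ier3, Hk1 and Cps1 were called in the same direction in ApccKO crypts, whereas Akr1b8 was not called there. The ApccKO change was 1.59 for Ier3 and -0.97 for Cps1. For Akr1b8 and these 8 genes the difference from ApccKO was not called. Of the S phase and of the G2 and M phase genes edgeR called 0 for this difference, with 19 and 21 below 0 at an unadjusted p under 0.05, and DESeq2 called 1 and 2. The count of 114 was 24 without double knockout day 2 replicate 3, 26 without its day 1 replicate 2, and 28 without Control day 1 replicate 2.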

How the data were processed

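Jejunal crypt RNA came from 24 mice, 1 library per mouse per the series design, and groups came from the sample titles. The values are estimated counts per gene, deposited by the authors and made with kallisto 0.43, with mm9 and DESeq and DESeq2 also named, per the submitters' processing notes. The sources used here do not state the annotation release or the summing of transcripts. Since kallisto divides reads among similar transcripts, the share of 31-base words that a gene has in common with others is given where it is high. Totals were 17.86 to 26.47 M estimated counts per library, and the fitted biological coefficient of variation was 17.6%.

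Counts were rounded to whole numbers and fitted in R 4.3.3 with edgeR 4.0.16 (robust quasi-likelihood, TMM scaling, minimum count of 10 in its expression filter, a mean for each of the 8 groups over all 24 libraries), with Benjamini-Hochberg adjustment and a threshold of 0.05. Alternatives used DESeq2 1.42.0, DESeq2 size factors, other filters, fewer libraries, a replicate block and a term for sex. Genes were named by a rule: Nle1 and Apc, the 12 most raised and 12 most lowered with a mean of at least 5 CPM and no overlap between days, 5 per direction for each difference between genotypes, and up to 4 per list by the smallest p. Further list members were named for their known role, with their values seen. The members and the 27 lists were chosen with earlier results of these data known. On simulated counts for the double knockout day change, 200 of 16339 genes were changed. Of those changed 1.5-, 2- and 4-fold, 38.8%, 73.1% and 93.9% were recovered, with 3.52% false calls. These counts were drawn from the fitted spread itself, with no library standing apart, so they do not give the share of false calls in the real data. The p-values measure the spread between mice.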

Additional observations from a re-analysis of the deposited data

Results flagged for a closer look

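These genes had a day change in double knockout crypts that differed from that in ApccKO crypts by edgeR's quasi-likelihood test of the difference, adjusted over all genes. Differences are on a log2 scale. Krt15 differed by 3.59 and kept its call in all 20 alternatives. Sco2 differed by 9.66 (adjusted p = 0.021), but it was at 0 CPM in all 3 ApccKO day 2 libraries, so the fitted size depends on the prior count and is no bound, and 66.2% of its 31-base words are shared with other transcripts. C77370 differed by 4.04 (adjusted p = 0.028), with ApccKO levels under 1 CPM on both days. Serpine2, a secreted protease inhibitor, differed by 3.69 (adjusted p = 0.021), and went from 3.65, 6.51 and 3.57 CPM to 7.65, 7.78 and 10.9 CPM in double knockout crypts. That change was not called (0.94±0.39, adjusted p = 0.17), and Serpine2 fell in ApccKO crypts (-2.755±0.547, adjusted p = 0.0027). Cyp2e1, an oxidising enzyme gene, differed by 1.87 (adjusted p = 0.037). Its double knockout change was not called (0.49±0.27, adjusted p = 0.33), and the days overlapped there. Cyp2e1 fell in ApccKO crypts (-1.38±0.28, adjusted p = 0.0033) and was lower on day 2 in Control crypts (-1.28±0.36, adjusted p = 0.17). Cym differed by -4.20 (adjusted p = 0.024), with ApccKO levels of 11.6, 9.87 and 6.74 CPM on day 1 and 10.3, 11.9 and 15.6 CPM on day 2. Cap2 differed by -2.52 (adjusted p = 0.013), Gkn3 by -2.48 (adjusted p = 0.039), Fstl4 by -2.75 (adjusted p = 0.040) and Lrrc4 by -2.52 (adjusted p = 0.038). Gkn3 was lower on day 2 in Control crypts too (-1.24±0.39, adjusted p = 0.25), and its difference from Control was not called (-0.79±0.54, adjusted p = 0.55). For Fstl4 and Lrrc4 the days overlapped in double knockout crypts, and ApccKO levels were higher on day 2. The calls for C77370 and Lrrc4 were kept in 10 of 20 alternatives, those for Cym in 11, Cyp2e1 in 8, Fstl4 in 9 and Gkn3 in 7.

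Against Control crypts, Psca, a surface antigen gene, differed by 3.44 (adjusted p = 0.0054), Cap2 by -2.67 (adjusted p = 0.0054) and Olfm4 by -2.56 (adjusted p = 0.0028), and these 3 kept their calls in all 20 alternatives. Notum differed by 2.88 (adjusted p = 0.017), from Control levels under 1 CPM, and kept its call in 19. Serpinb5, a serpin also known as maspin, differed by 2.93 (adjusted p = 0.036), Basp1 by 2.79 (adjusted p = 0.032) and the cytokine gene Clcf1 by 2.64 (adjusted p = 0.036), with calls kept in 9, 13 and 11. Slco2b1 differed by -2.73 (adjusted p = 0.031), at 82.6 to 116 CPM in Control crypts and 0.697 to 7.37 CPM in double knockout crypts, and Ros1 by -3.07 (adjusted p = 0.048), with calls kept in 11 and 5. Ighg2b, an antibody heavy chain gene of plasma cells, differed by -7.17 (adjusted p = 0.036), its days overlapped in double knockout crypts, and its call was kept in 8. Its Control mean went from 0.543 to 19.6 CPM (5.13±1.12, adjusted p = 0.085), and its double knockout change was not called (-2.04±0.95, adjusted p = 0.24). The Control day changes of Psca (-1.52), Serpinb5 (-1.22), Notum (-0.95) and Cap2 (0.97) were not called, but they are part of these differences. In ApccKO crypts Psca (1.06), Olfm4 (-1.25), Notum (2.35), Basp1 (1.85), Slco2b1 (-3.52) and Ros1 (-3.79) were called in the same direction as in double knockout crypts. Their differences from ApccKO were not called. The ApccKO day changes of Serpinb5, Clcf1, Ighg2b and Cap2 were not called.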

How the results depend on the processing

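Of 71 genes named for and called in the double knockout day change, 28 kept the call in all 14 alternatives, 43 lost it in at least 1 and 0 reversed. Leaving out day 1 replicate 1, 2 or 3 ended 16, 38 or 11 of these calls, and day 2 replicate 1, 2 or 3 ended 11, 24 or 37. The 1075 double knockout calls were 454 (316 higher, 138 lower) in a fit to the 6 libraries alone, and 254 to 1183 when 1 library was left out. Without the 3 libraries standing apart they were 969, with 412 higher and 557 lower. Same-numbered libraries of the 2 double knockout days deviated from their group means with correlations of -0.033, 0.097 and 0.075, so they share only a number; the replicate block gave 1013 calls. ApccKO calls were 34 without the 3 libraries and 861 to 1874 with 1 left out. Control calls were 144 by DESeq2, 17 without a filter, 5 from the libraries compared, 16 with the replicate block and 50 with a term for sex, and 0 to 82 with 1 library left out. The 72 differences from ApccKO were 310 by DESeq2, 113 with a term for sex, 5 without the 3 libraries and 8 to 134 with 1 left out. The 114 differences from Control were 419 by DESeq2, 70 without a filter, 67 from the libraries compared, 72 with the replicate block, 201 with a term for sex and 24 to 191 with 1 left out. Uncalled day changes that reversed were Lrrc4 (0.011 with the replicate block, 0.006 with a term for sex, -0.327 to 0.704 with 1 library left out), Sco2 (0.528 without the 3 libraries, -0.454 to 0.531 with 1 left out), H2-Ab1 (0.195 and -0.739 to 0.198), Nle1 (-0.100 and -0.097 to 0.254), Fstl4 (-0.578 to 0.229 with 1 left out) and Apc (-0.031 to 0.007). The causes were not tested.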
